A study of Homo sapiens with 12 samples.

Results

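The thioredoxin and peroxiredoxin system was examined through 10 of its genes, listed by symbol with earlier results of these data known: TXN, TXN2, TXNRD1, TXNRD2, TXNIP, SRXN1, PRDX1, PRDX2, PRDX3 and PRDX6. All 10 were found among the 60710 gene rows of the deposited count table, and all 10 passed the filter on low counts that left 16366 genes for testing. The cells were SH-SY5Y, a human neuroblastoma line. The series holds 12 libraries of mRNA in 4 groups of 3. Control wells received 10 µL of DMSO, the solvent, in 2 mL of medium, and the other wells received the same volume of DMSO with HPPE, zinc protoporphyrin or tin protoporphyrin at a final 5 µM. Cells were lysed after 5 h in every group. Zinc and tin protoporphyrin carry the same porphyrin ring with a different metal at its centre; HPPE is known here by its code name alone. Going by its title, the series concerns activators of NRF2, the transcription factor that raises antioxidant genes. A single cell line was used and the labels do not say whether replicates were separate cultures, so p-values measure the spread between these libraries, which may be technical.

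Thioredoxins are small proteins that reduce disulfide bonds in other proteins, and thioredoxin reductases, which are selenoproteins, reduce them again with electrons from NADPH. Peroxiredoxins use that supply to break down hydrogen peroxide, and sulfiredoxin, encoded by SRXN1, returns over-oxidised peroxiredoxins to service. TXNIP binds thioredoxin and inhibits it. The system runs in parallel in the cytosol (TXN, TXNRD1, PRDX1, PRDX2, with PRDX6, SRXN1 and TXNIP grouped there) and in mitochondria (TXN2, TXNRD2, PRDX3). TXNRD1, SRXN1, TXN and PRDX1 are known targets of NRF2, which acts through the antioxidant response element, and TXNIP is known as a gene raised by glucose through the carbohydrate response element.

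The upstream windows below belong to TXNRD1, SRXN1 and TXNIP, the members whose calls with HPPE against the control, given further on, held under all alternatives tried. They show where the elements just named match and where they do not. They are the 250 bases before RefSeq gene starts (GRCh38.p14), printed 5′ to 3′ on the gene's strand, with motif matches in capitals. The first TXNRD1 window is chr12:104215529-104215778, plus strand, and the second is chr12:104286782-104287031, plus strand, before a start inside the span of the gene. The SRXN1 window is chr20:653201-653450, minus strand, and the TXNIP window chr1:145996580-145996829, minus strand.
TXNRD1 first start: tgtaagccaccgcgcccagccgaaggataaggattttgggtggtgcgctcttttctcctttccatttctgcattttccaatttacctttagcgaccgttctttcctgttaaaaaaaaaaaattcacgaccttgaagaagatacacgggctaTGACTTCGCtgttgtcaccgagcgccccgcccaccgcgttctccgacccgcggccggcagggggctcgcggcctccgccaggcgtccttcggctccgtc
TXNRD1 second start: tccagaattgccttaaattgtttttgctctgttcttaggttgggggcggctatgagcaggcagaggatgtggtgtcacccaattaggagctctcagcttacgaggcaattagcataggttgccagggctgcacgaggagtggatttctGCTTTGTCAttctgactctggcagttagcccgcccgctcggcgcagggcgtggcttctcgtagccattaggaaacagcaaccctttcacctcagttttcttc
SRXN1: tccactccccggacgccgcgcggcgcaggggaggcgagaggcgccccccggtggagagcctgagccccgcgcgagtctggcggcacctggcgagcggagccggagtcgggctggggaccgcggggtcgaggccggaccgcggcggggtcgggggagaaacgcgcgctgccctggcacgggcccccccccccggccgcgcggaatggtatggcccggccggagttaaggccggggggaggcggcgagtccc
TXNIP: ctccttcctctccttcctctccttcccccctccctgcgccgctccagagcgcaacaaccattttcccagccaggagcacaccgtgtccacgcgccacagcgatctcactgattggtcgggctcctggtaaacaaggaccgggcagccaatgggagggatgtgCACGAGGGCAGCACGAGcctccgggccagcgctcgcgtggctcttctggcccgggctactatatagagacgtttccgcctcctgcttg
The core searched for the antioxidant response element was TGACNNNGC on both strands. It matched in both TXNRD1 windows, as TGACTTCGC beginning 99 bases before the first start, and as GCTTTGTCA, which reads TGACAAAGC on the other strand, beginning 102 bases before the second. This core was present in 10.9% of the 35116 windows of all genes. The carbohydrate response element, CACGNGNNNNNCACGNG, matched once in the TXNIP window, as CACGAGGGCAGCACGAG beginning 88 bases before the start, and in 0.0456% of all windows. The AP-1 letters TGANTCA, present in 6.57% of all windows, matched in none of the 11 windows found for 7 of the 10 members. The SRXN1 window and the other windows of members, that of TXN among them, held neither element. No window was found for TXN2, PRDX1 and PRDX6, so these were not searched. The spans of the genes given further on are those of GENCODE v29 on GRCh38. A match is a description of letters, and gene counts do not tell transcripts of the 2 TXNRD1 starts apart.

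Libraries held 1337028 to 9145399 counts, the lowest being 1337028 in zinc protoporphyrin replicate 1 and 1514595 in DMSO control replicate 3. Libraries of a group also differed along a common axis, the first principal component of deviations from group means, which held 52.7% of the within-group variance over 10972 genes. A library's score projects its deviations from the mean over all libraries on this axis, so differences between groups also enter the scores. Scores ran from -23.5 in zinc protoporphyrin replicate 3 to 25.7 in DMSO control replicate 3. Deviations from the mean over all libraries were related to transcript length (Spearman correlation across genes from -0.54 to 0.57 by library, genes not being independent replicates). The 3 HPPE libraries scored 1.03 to 15.3 and the 3 zinc protoporphyrin libraries -23.5 to -3.99, so these groups did not overlap on the axis. Noradrenergic neuroblastoma markers summed to 2420 to 3244 CPM (counts scaled to a library of 1e6 counts) in all libraries, with 7 of 8 markers above 1 CPM. These 7 are most of the listed markers of the labelled line's lineage, but the other, TH, had group means of 0.04 to 0.08 CPM. Markers of mesenchymal-type neuroblastoma summed to 241 to 276 CPM in the control, 308 to 311 with HPPE, 316 to 346 with zinc protoporphyrin and 372 to 399 with tin protoporphyrin. PRRX1, a defining marker, was at 0 outside HPPE. With HPPE it was at 0.125, 0 and 0 CPM, under the 0.375 CPM that 3 counts equal in HPPE replicate 1. The part of these cell markers in the results was not tested. Markers of other cells summed to at most 1.98 CPM. In bulk RNA, fewer cells of a type and less RNA per cell cannot be told apart.

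In the solvent-treated control cells the members differed widely in level. Per kilobase of the longest annotated transcript, PRDX6 stood highest in the DMSO control at 95.5 ± 10.7 CPM per kb (SD, n = 3), followed by PRDX1 at 76.3 ± 19.9, PRDX2 at 67.5 ± 12.04, TXNRD1 at 55.0 ± 4.16 and TXN at 45.7 ± 9.02. PRDX3, TXNIP and TXN2 lay within each other's spread at 40.5 ± 5.41, 38.4 ± 3.76 and 38.2 ± 4.59 CPM per kb. TXNRD2 followed at 6.20 ± 1.98 and SRXN1 was lowest at 0.533 ± 0.0578 CPM per kb. PRDX1 and PRDX2 overlapped both neighbours in that order within their SD, whereas TXNRD2 and SRXN1 stood apart from all others. The place of SRXN1 is uncertain, since 85% of its exonic bases also lie in exons of AL121758.1. How reads shared by overlapping genes were counted is not given in the sources used here. With HPPE the order changed at the top, where TXNRD1 reached 188 ± 8.28 CPM per kb, above PRDX1 at 121 ± 20.8 and PRDX6 at 116 ± 4.35.

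HPPE raised 3 of the 10 members and lowered 1 against the DMSO control (edgeR's quasi-likelihood test, Benjamini-Hochberg adjusted p under 0.05). All 4 were cytosolic, but so were 7 of the 10 members. TXNRD1, SRXN1 and PRDX1 rose and TXNIP fell. Over all genes tested, 2.57% were called higher and 1.47% lower, so 3 of 10 and 1 of 10 stand above those shares. The members were chosen with earlier results of these data known, so this is a description and not independent support. The median log2 fold change was 0.29 over the 10 members and 0.02 over all genes tested.

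**Figure D1:**
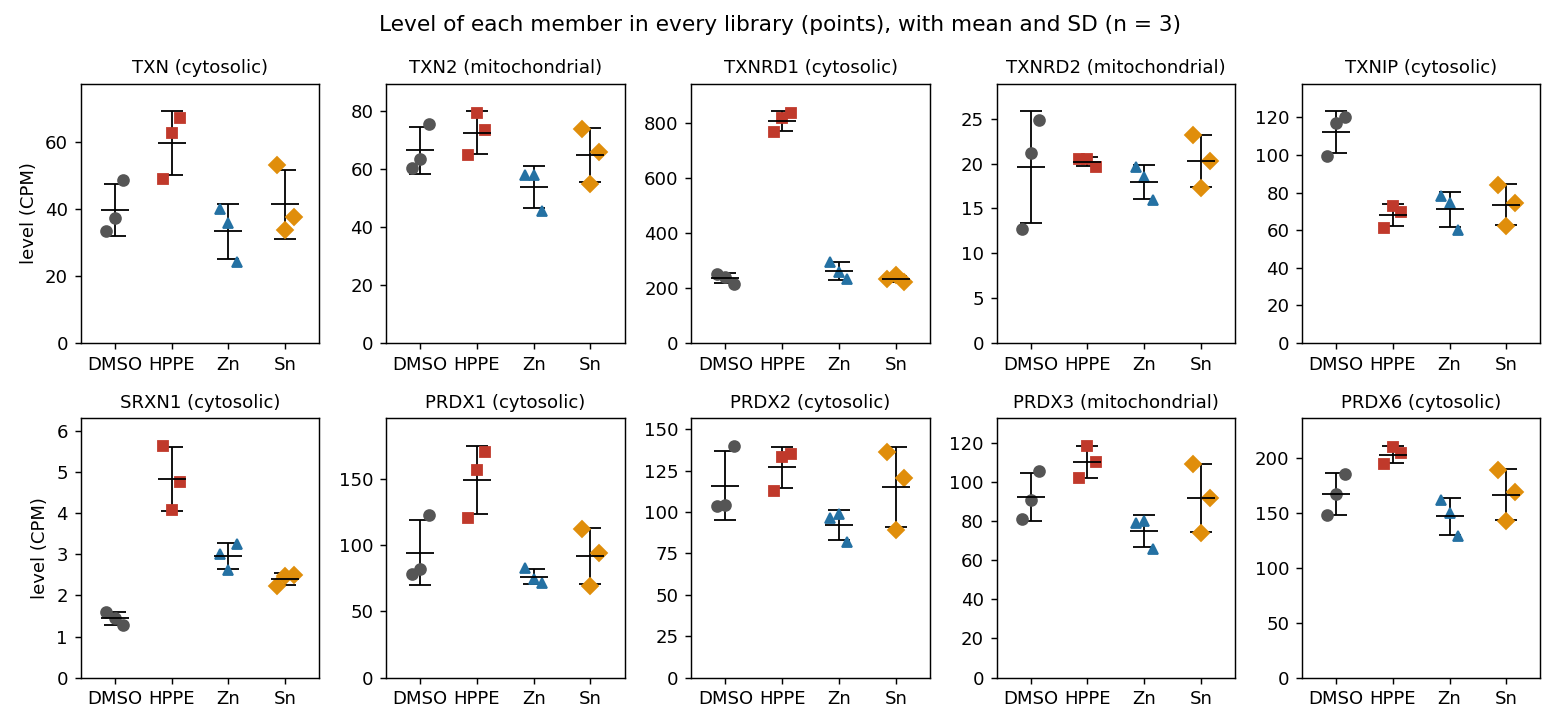
Level of each member in CPM (vertical axis, from 0) in every library (points), by group, with the mean and SD over 3 libraries; compartment in brackets. TXNRD1 lies between 767 and 835 CPM with HPPE and at or below 294 CPM elsewhere, while all 9 compound-treated TXNIP points lie below the 3 controls.

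Among the reductases, TXNRD1 (chr12:104215779-104350305, plus strand), the cytosolic enzyme, carried the largest difference. It measured 250.4, 239.8 and 216 CPM in the control libraries 1 to 3 and 767, 817 and 835 CPM in the HPPE libraries. Every HPPE library stood above every library of the other groups. The fitted rise was 3.40-fold, a log2 fold change of 1.77 ± 0.09 (SE, n = 3 per group; edgeR adjusted p = 2.65e-09), and it ranked 5 by p among the 16366 genes. It was 1.72 to 1.81 on the log2 scale across all 23 alternative settings, and called in each. Zinc protoporphyrin libraries measured 294, 259 and 231 CPM and tin protoporphyrin libraries 231, 246 and 223 CPM, both overlapping the control, with log2 fold changes of 0.13 ± 0.09 (edgeR adjusted p = 0.488) and -0.02 ± 0.09 (edgeR adjusted p = 0.949). The 95% intervals reached from -0.07 to 0.33 for zinc and from -0.22 to 0.17 for tin protoporphyrin. TXNRD2 (chr22:19875517-19941992, minus strand), the mitochondrial reductase, measured 12.7, 21.1 and 24.9 CPM in the control and 20.5, 20.5 and 19.6 CPM with HPPE. The HPPE libraries lay inside the control range, and no compound passed the test for it.

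TXNIP (chr1:145992435-145996600, minus strand), the thioredoxin-binding inhibitor, was lower with each compound. The control libraries measured 99.6, 117 and 120.0 CPM and the HPPE libraries 61.4, 73.0 and 69.7 CPM. Zinc protoporphyrin libraries measured 78.3, 74.5 and 60.3 CPM, and tin protoporphyrin libraries 84.0, 62.2 and 74.3 CPM. No compound-treated library reached the lowest control. The fall was 0.71 ± 0.12 on the log2 scale with HPPE (1.64-fold lower; edgeR adjusted p = 0.00194), and the 95% interval ran from -0.97 to -0.46. With zinc protoporphyrin it fell by 0.68 ± 0.12 (1.60-fold; edgeR adjusted p = 0.00772), and with tin protoporphyrin by 0.60 ± 0.12 (1.51-fold; edgeR adjusted p = 0.00974). These 3 comparisons share the control libraries, so they are not independent of each other. TXNIP was the only member called with either metal protoporphyrin, where 0.415% of all genes were called lower with zinc, 1.84% higher, and 0.379% lower with tin, 1.90% higher. Without DMSO control replicate 2 the adjusted p rose to 0.0737 for zinc and 0.0933 for tin protoporphyrin; without zinc replicate 3 it was 0.0902, and with only the 6 libraries compared it was 0.0685 for tin. The HPPE call held in all 23 alternatives, with adjusted p up to 0.0238.

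**Figure D2:**
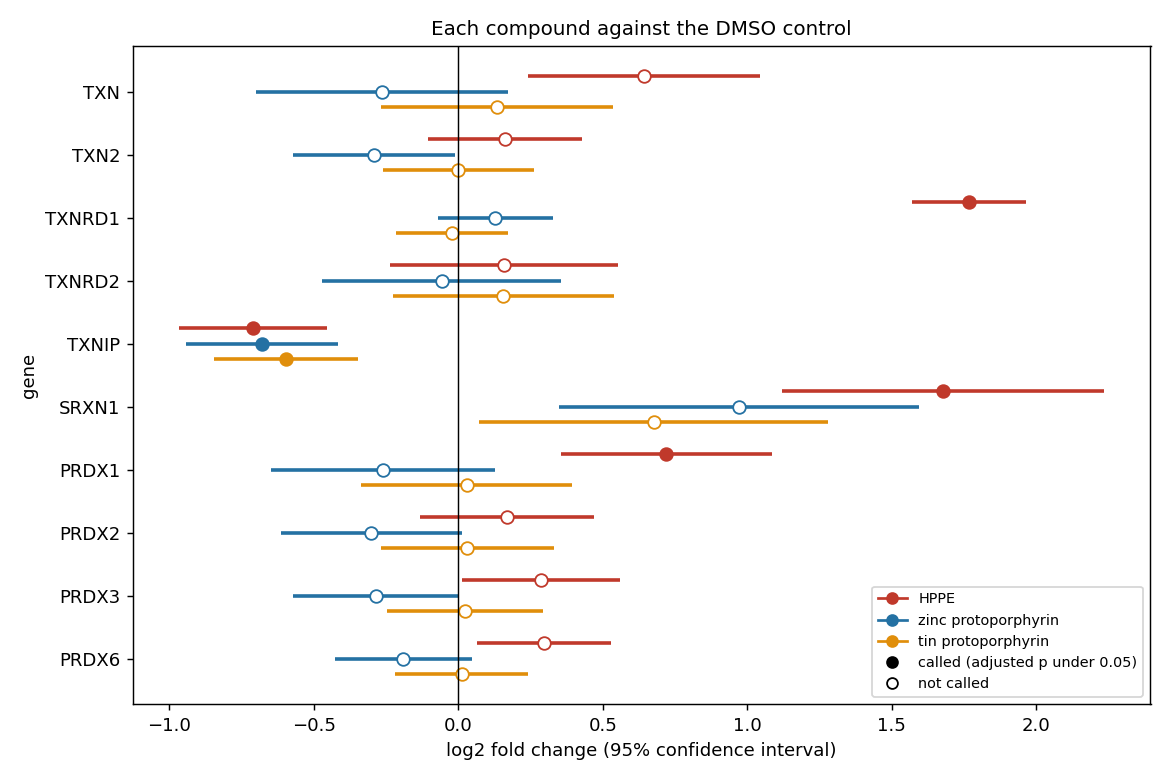
Log2 fold change of each member against the DMSO control (horizontal axis) with its 95% interval, for HPPE, zinc and tin protoporphyrin; filled points passed the test. TXNRD1 and SRXN1 lie far to the right with HPPE at 1.77 and 1.68, and the 3 TXNIP points lie between -0.71 and -0.60.

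SRXN1 (chr20:646615-653370, minus strand), the repair enzyme of peroxiredoxins, was scarce, with 230 counts over the 12 libraries. It measured 1.59, 1.45 and 1.28 CPM in the control, from 12, 11 and 2 counts, and 5.63, 4.08 and 4.75 CPM with HPPE, from 45, 35 and 15 counts. The groups did not overlap, and the last control library lay under the floor of 3 counts used for detection. The rise was 3.20-fold, 1.68 ± 0.26 on the log2 scale (edgeR adjusted p = 9.87e-04), and was called in all 23 alternatives. Zinc protoporphyrin libraries measured 3.01, 2.62 and 3.25 CPM and tin protoporphyrin libraries 2.23, 2.48 and 2.50 CPM. Both groups lay above every control library and below every HPPE library, with log2 fold changes against the control of 0.97 ± 0.30 (edgeR adjusted p = 0.0906) and 0.68 ± 0.29 (edgeR adjusted p = 0.32), neither called. Of the exonic bases of SRXN1, 85.0% also lie in exons of AL121758.1 on the same strand, which held 12 counts in all. How reads shared by overlapping genes were counted is not given in the sources used here, so its level is uncertain.

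Among the thioredoxins, TXN (chr9:110243811-110256640, minus strand), the cytosolic form, measured 33.5, 37.1 and 48.5 CPM in the control and 48.9, 62.6 and 67.1 CPM with HPPE. The groups just failed to overlap, at 48.5 against 48.9 CPM. The log2 fold change was 0.64 ± 0.19 and missed the threshold (edgeR adjusted p = 0.0698). It passed, at 0.63 to 0.64, with only the compared groups fitted (0.0192), with no filter beyond 1 count (2.95e-05), without zinc replicate 3 (0.0492) and without tin replicate 1 (0.0282). TXN2 (chr22:36467036-36482030, minus strand), the mitochondrial form, measured 60.2, 63.4 and 75.3 CPM in the control and 64.5, 79.1 and 73.5 CPM with HPPE, a difference of 0.16 ± 0.13 on the log2 scale. Those groups overlapped (edgeR adjusted p = 0.534). Neither thioredoxin passed the test with zinc protoporphyrin, at -0.26 ± 0.21 for TXN and -0.29 ± 0.13 for TXN2, or with tin protoporphyrin, at 0.14 ± 0.19 and 0.00 ± 0.12.

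Of the 4 peroxiredoxins, PRDX1 (chr1:45511036-45523047, minus strand), a cytosolic peroxide scavenger reduced by TXN, was the only one called with HPPE. It measured 78.2, 81.8 and 122 CPM in the control and 120.4, 156 and 170.0 CPM with HPPE. DMSO control replicate 3 lay above HPPE replicate 1, so the groups overlapped. The rise was 1.65-fold, 0.72 ± 0.17 on the log2 scale (edgeR adjusted p = 0.0243). The call was lost without DMSO control replicate 1 or 2 or without HPPE replicate 2 or 3 (adjusted p from 0.112 to 0.194), and with HPPE replicates 2 and 3 summed (0.0985). Of its exonic bases, 24.9% are shared with MMACHC on the opposite strand, and the strand setting of the counting is not given in the sources used here. PRDX2 shares 14.1% with AC018761.2 on the opposite strand. Named pseudogenes of TXN, PRDX1, PRDX2 and PRDX3 held counts equal to 1.03%, 0.348%, 0.775% and 2.10% of those of the gene, and how reads shared with these copies were counted is not given in the sources used here.

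PRDX2, PRDX3 and PRDX6 did not pass the test with HPPE. PRDX6 (chr1:173477266-173488807, plus strand), the 1-cysteine member, measured 148, 168 and 186 CPM in the control and 195, 209.9 and 205 CPM with HPPE, without overlap, at a log2 fold change of 0.30 ± 0.11 (edgeR adjusted p = 0.153). PRDX3 (chr10:119167703-119178833, minus strand), the mitochondrial member, measured 80.8, 90.5 and 105 CPM against 102, 118 and 110.2 CPM, with overlap, at 0.29 ± 0.13 (edgeR adjusted p = 0.256). PRDX2 (chr19:12796820-12801859, minus strand), abundant in the cytosol, measured 104, 104 and 139.7 CPM against 113, 133 and 135 CPM, with overlap, at 0.17 ± 0.14 (edgeR adjusted p = 0.574). With zinc protoporphyrin the 4 peroxiredoxins lay between -0.30 and -0.19 on the log2 scale, and with tin protoporphyrin between 0.01 and 0.03, none called. Members whose libraries did not overlap the control numbered 5 with HPPE, 5 with zinc and 2 with tin protoporphyrin, against 21.4%, 22.0% and 17.9% of all genes tested.

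The levels of TXN and PRDX1 moved with the library axis. In all 4 groups the libraries of TXN and of PRDX1 stood in the order of their axis scores, as did those of TXN2, TXNRD2, TXNIP, PRDX2 and PRDX6 in 3 groups, TXNRD1 and PRDX3 in 2 and SRXN1 in none. TXN and PRDX1 were among the genes that built the axis. The share of all genes in this order was not counted, so the order is not shown to be particular to them. With the axis score as a covariate, 5 members were called higher with HPPE against the control, and 1 lower. PRDX1 stood at a log2 fold change of 0.51 ± 0.07 (edgeR adjusted p = 7.42e-09), TXN stood at 0.38 ± 0.09 and PRDX6 at 0.19 ± 0.06 (edgeR adjusted p = 0.00245 and 0.0134). TXNRD1 was nearly unmoved at 1.76 ± 0.06, SRXN1 stood at 1.83 ± 0.33 and TXNIP at -0.84 ± 0.07. The 3 mitochondrial members lay at 0.02 for TXN2, 0.00 for TXNRD2 and 0.14 for PRDX3, none called. The axis was computed from these same libraries, and its scores also hold differences between the groups. As a covariate it takes up spread within groups, so p-values under it, here and below, may be too small. They do not make the results for PRDX1, TXN or PRDX6 firmer. The covariate also raised the calls over all genes, from 421 higher and 241 lower to 1002 and 804.

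**Figure D3:**
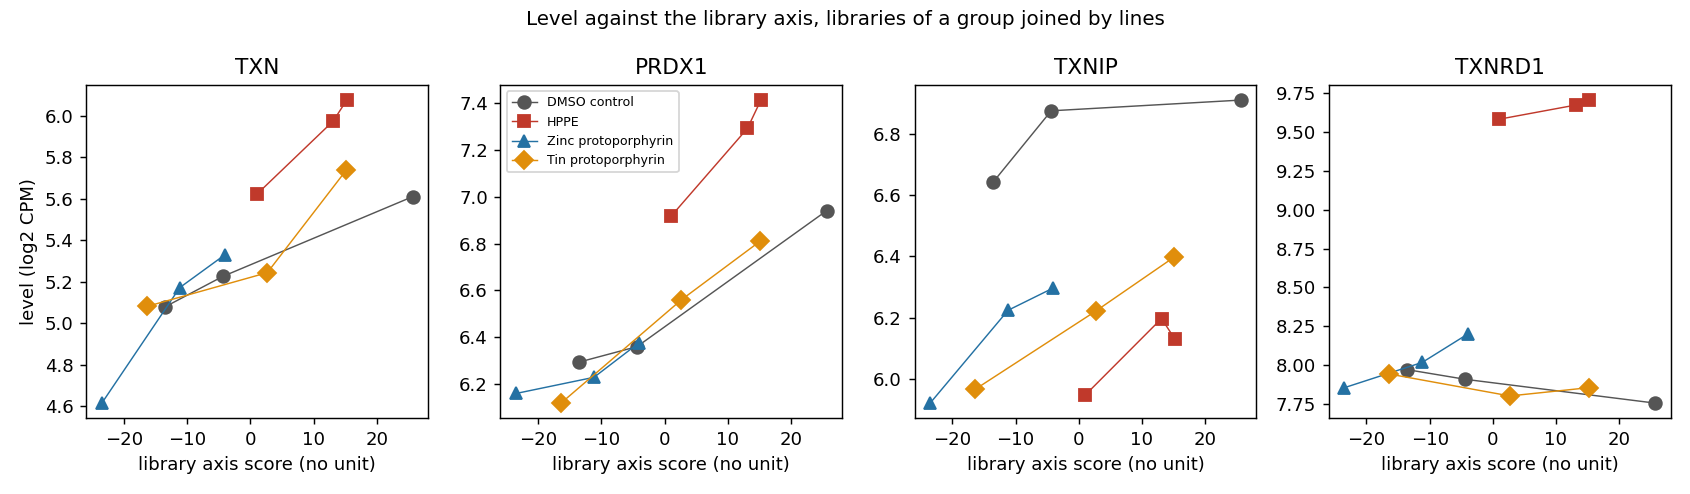
Level in log2 CPM (vertical axis) of TXN, PRDX1, TXNIP and TXNRD1 against the library axis score (horizontal axis, no unit), with the 3 libraries of a group joined. TXN and PRDX1 climb along the axis in each of the 4 groups, with HPPE above the other groups at like scores, TXNIP controls lie above the compounds at like scores, and TXNRD1 separates HPPE at every score.

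The cytosolic TXN, TXNRD1 and PRDX1 were set against their mitochondrial counterparts TXN2, TXNRD2 and PRDX3 within each library, which needs no scaling between libraries. PRDX2 and PRDX6, also cytosolic, were not set against PRDX3. Their log2 fold changes with HPPE against the control were 0.17 and 0.30, where that of PRDX3 was 0.29. A ratio does not remove the library axis, which is related to transcript length. For the reductases the TXNRD1 to TXNRD2 ratio of counts was 19.6, 11.3 and 8.57 in the control and 37.3, 39.7 and 42.2 with HPPE, without overlap. Zinc protoporphyrin libraries stood at 14.7, 14.0 and 14.5, and tin protoporphyrin libraries at 9.93, 14.1 and 10.9, both inside the control range. The ratio rose 3.20-fold with HPPE, by 1.68 on the log2 scale. An exact permutation F test over the 4 groups gave exact p = 0.0117 (adjusted over the 3 ratios, 0.0285). That test has no direction and does not test the HPPE minus control difference alone. The ratio was called without each library in turn, with adjusted exact p up to 0.0429 and HPPE minus control log2 differences of 1.41 to 2.01.

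For the thioredoxins the TXN to TXN2 ratio was 0.556, 0.586 and 0.646 in the control and 0.758, 0.791 and 0.914 with HPPE, also without overlap. The difference was 0.46 on the log2 scale (1.38-fold). The exact permutation F test over the 4 groups, which does not test this difference alone, gave p = 0.0285 (adjusted 0.0285). The PRDX1 to PRDX3 ratio was 0.967, 0.904 and 1.16 in the control and 1.18, 1.32 and 1.54 with HPPE, a difference of 0.42 (1.33-fold). For this ratio the same F test over the 4 groups gave exact permutation p = 0.0284 (adjusted 0.0285). Both lost the call without some libraries: without DMSO control replicate 1, HPPE replicate 2 or 3, or tin replicate 2 for either, and without zinc replicate 1 for PRDX1 to PRDX3, with adjusted exact p of 0.0503 to 0.112. Other settings were 1 added to counts in place of 0.5, and the library axis removed by regression. Under these the HPPE minus control difference was 0.40 to 0.46 for TXN to TXN2 and 0.368 to 0.415 for PRDX1 to PRDX3, both still called. With zinc and tin protoporphyrin these 2 ratios differed from the control by -0.02 to 0.09 on the log2 scale. The smallest p this design can give is 6.49e-05 over 369600 assignments.

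**Figure D4:**
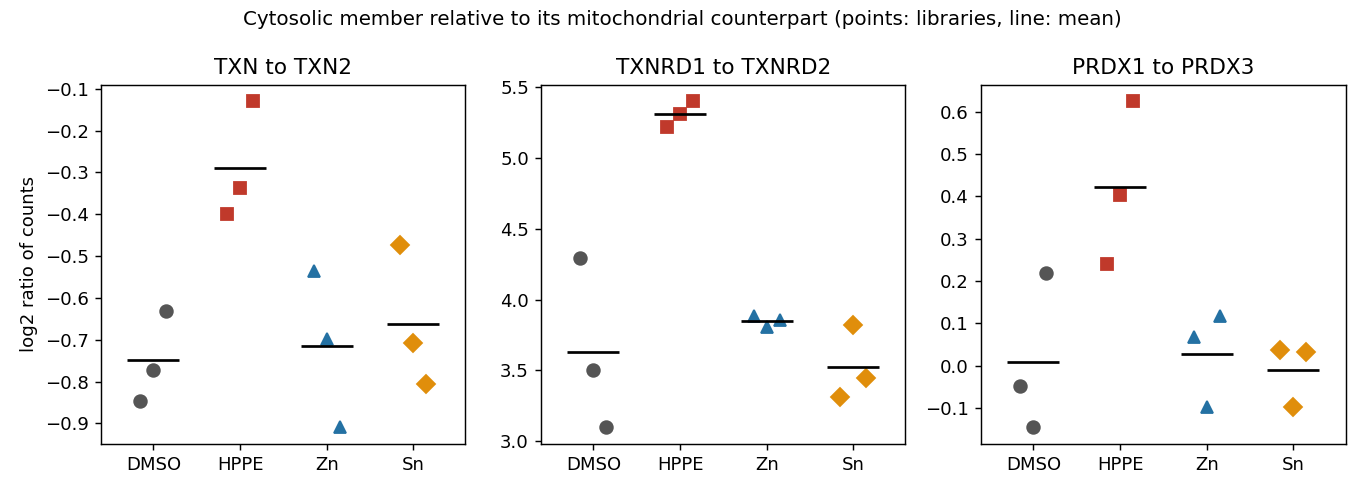
Log2 ratio of counts (vertical axis) of TXN, TXNRD1 and PRDX1 to their mitochondrial counterparts, in every library (points) with the group mean (line). HPPE points lie highest for all 3 pairs, most clearly for TXNRD1 to TXNRD2, at 5.22 to 5.40 against at most 4.29 in the control.

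Compounds were also compared with each other, all at 5 µM and 5 h. HPPE against zinc protoporphyrin gave 7 members higher and 0 lower, where 6.44% of all genes were called higher and 6.26% lower: TXNRD1 by 1.64 ± 0.09, PRDX1 by 0.98 ± 0.18, TXN by 0.91 ± 0.19, PRDX3 by 0.57 ± 0.13, PRDX6 by 0.49 ± 0.11, PRDX2 by 0.47 ± 0.14 and TXN2 by 0.45 ± 0.13 on the log2 scale (edgeR adjusted p from 1.49e-08 to 0.0442). Libraries of 9 members did not overlap between these groups, against 36.7% of all genes. SRXN1 stood at 0.70 ± 0.23 and missed the threshold (edgeR adjusted p = 0.0524). The TXNIP difference was not called, and its interval ran from -0.30 to 0.23. The axis that separates these groups moves with this result: with it as a covariate TXNRD1 stood at 1.68, and the differences of the other called members were smaller. PRDX1 at 0.47, TXN at 0.39 and PRDX6 at 0.25 were still called, while PRDX3 at 0.23, TXN2 at 0.14 and PRDX2 at 0.07 were not, and TXNIP was called lower by 0.30 ± 0.09 (edgeR adjusted p = 0.0347). Without HPPE replicate 2, HPPE replicate 3 or zinc replicate 3, only TXNRD1 and PRDX1 of the 7 were called.

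HPPE against tin protoporphyrin gave 3 members higher and 0 lower, where 0.745% of all genes were called higher and 0.709% lower. TXNRD1 was higher by 1.79 ± 0.09, SRXN1 by 1.0 ± 0.22 and PRDX1 by 0.69 ± 0.16 on the log2 scale (edgeR adjusted p = 2.55e-09, 0.0259 and 0.046). Libraries of 4 members did not overlap, against 19.9% of all genes. The TXNRD1 call held in all 23 alternatives, whereas that of SRXN1 was lost in 10 and that of PRDX1 in 14 of 23. Zinc against tin protoporphyrin, which differ in the metal, called 0 members, where 1 gene of 16366, 0.00611%, was called higher and 0% lower by edgeR; DESeq2 also called 0 members. SRXN1 alone did not overlap between them, against 12.9% of all genes. At an unadjusted p under 0.05, 3 of the 10 members were lower with zinc, against 6.92% of all genes: TXN2 by 0.29, PRDX2 by 0.33 and PRDX3 by 0.31 on the log2 scale. Within-group deviations of these 3 genes correlated at 0.94 to 0.96, so they are not independent. With the library axis as a covariate their zinc minus tin differences were -0.086, -0.065 and -0.075, none called. The interval of the zinc minus tin difference ran from -0.05 to 0.35 for TXNRD1, from -0.34 to 0.18 for TXNIP and from -0.81 to 0.01 for TXN, so differences of those sizes cannot be set aside.

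**Figure D5:**
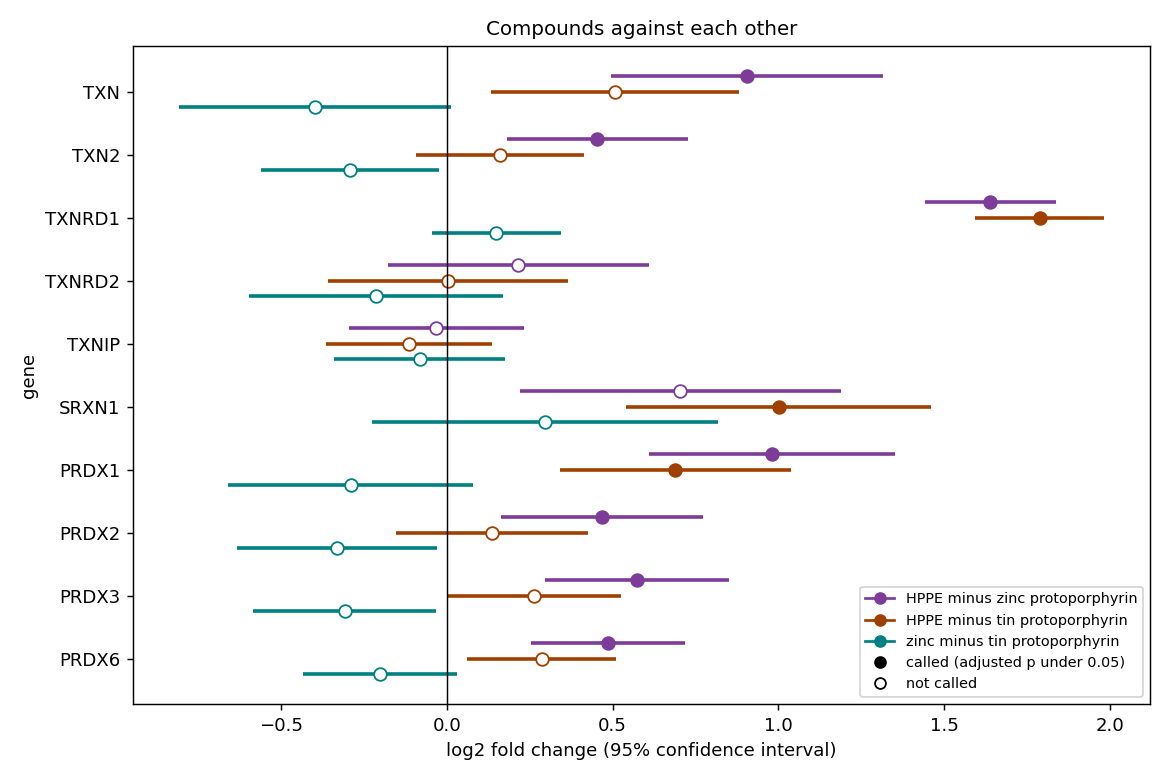
Log2 fold change of each member between compounds (horizontal axis) with its 95% interval; filled points passed the test. HPPE exceeds both metal protoporphyrins for TXNRD1, at 1.64 and 1.79, and the zinc minus tin differences all lie between -0.40 and 0.30, none of them called.

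In a wider list of 26 thiol redox genes (further peroxiredoxins, thioredoxin-like proteins, glutaredoxins, sestrins, methionine sulfoxide reductases and selenoprotein synthesis), all 26 were tested and 1 was called, higher, with HPPE against the control, a share near the 2.57% called higher over all genes. This was GSR, glutathione reductase, the counterpart of thioredoxin reductase in the glutathione system. It measured 95.1, 89.4 and 93.2 CPM in the control and 156, 157 and 161 CPM with HPPE, without overlap, a log2 fold change of 0.77 ± 0.08 (edgeR adjusted p = 7.56e-06). GSR was also higher with HPPE than with zinc (0.85 ± 0.08) and tin protoporphyrin (0.83 ± 0.07). GLRX3, a glutaredoxin that carries iron-sulfur clusters, was higher with HPPE than with zinc protoporphyrin by 0.34 ± 0.10 (edgeR adjusted p = 0.0391). SESN3, a sestrin, was lower with tin protoporphyrin than in the control by 0.47 ± 0.11 (edgeR adjusted p = 0.0309), with overlap. With zinc protoporphyrin against the control edgeR called 0 genes of the list, with 1 higher at an unadjusted p under 0.05, where 10.9% of all genes were, and DESeq2 called 0. DESeq2 called 1 gene of the list for HPPE against zinc protoporphyrin, where edgeR called GSR and GLRX3. The median log2 fold change of the list was 0.05 with HPPE, -0.06 with zinc and 0.03 with tin protoporphyrin, against 0.02, 0.00 and 0.01 over all genes. Of 4 genes tied to TXNIP through glucose sensing, 3 were tested, and edgeR and DESeq2 called 0 against the control with each compound, with 1 lower at an unadjusted p under 0.05 in each of these comparisons, where 7.87%, 7.79% and 6.08% of all genes were with HPPE, zinc and tin protoporphyrin; 1 of so few genes is no result about them.

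The genes whose levels were most like those of TXNRD1 over the 12 libraries (Pearson r of log2 CPM, among genes with a mean log2 CPM above 3; a description, since all points share groups and the library axis) were HSPH1 (r = 0.99), TKT (0.99), GCLM (0.98), NQO1 (0.98) and OSGIN1 (0.98). GCLM, a subunit of the enzyme that makes glutathione's precursor, stood at 26.3 ± 0.78 CPM in the control and 157 ± 4.59 CPM with HPPE, and NQO1, a quinone reductase, at 22.4 ± 2.40 and 124 ± 10.8 CPM (SD, n = 3). For SRXN1 they included P2RY6 (0.96), TBK1 (0.94), FAM83G (0.94) and ABCC3 (0.94). For TXN they included C12orf57 (0.98), ORMDL1 (0.98), DNAJB2 (0.98) and PSMC4 (0.97), and for TXNIP they were PRUNE1 (0.93), AMZ2 (0.91), SAMD11 (0.90), RETREG2 (0.90) and CWF19L1 (0.90). PRUNE1 stood at 60.4 ± 2.93 CPM in the control and at 49.6 ± 4.35, 48.0 ± 5.50 and 49.2 ± 3.97 CPM with HPPE, zinc and tin protoporphyrin.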

How the data were processed

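Counts of mRNA reads per gene were deposited as whole numbers that are not normalized, per the file headers and values; the authors used fastp 0.21.1, STAR 2.7.7a, featureCounts and GRCh38, per the submitters' processing notes. The annotation and strand setting are not given in the sources used here. Members were matched by Ensembl ID without version; positions, lengths and overlaps come from GENCODE v29 (GRCh38), whose ID versions differ from those of the table. Of 60710 rows, 60437 matched a symbol.

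Groups were taken from the labels. edgeR 4.0.16 in R 4.3.3 was run with filterByExpr (16366 genes, 99.6% of counts), TMM scaling and a robust quasi-likelihood fit of all 12 libraries, with 6 comparisons, two-sided, and Benjamini-Hochberg adjustment over all genes; the threshold for a call was 0.05. CPM uses TMM library sizes. Ratios of members used counts plus 0.5 and an exact permutation F test (Python 3.11.15, scipy 1.17.1). Fits and the permutation test were tested on simulated data. The 10 members and all lists were chosen with earlier results of these data known. Named were all members, listed genes where called, and the 5 genes most like TXNRD1, SRXN1, TXN and TXNIP; GCLM, NQO1 and PRUNE1 were picked from those for their values. Some genes that the rule names are not reported here.

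Library totals were 1337028 to 9145399 counts; a floor of 3 counts equals 0.328 to 2.24 CPM, and covers counting error only. HPPE replicates 2 and 3 differed least (chi-square per degree of freedom 1.10, p = 2.04e-18) and were kept as separate samples. Alternatives were RLE scaling, unscaled libraries, 2 other filters, DESeq2 1.42.0, compared groups only, non-robust estimation, a replicate block, the library axis, a length and GC trend, HPPE replicates 2 and 3 summed, and each library left out.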

Additional observations from a re-analysis of the deposited data

How the results depend on the processing

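TXNRD1 and SRXN1 (higher) and TXNIP (lower) with HPPE against the control, and TXNRD1 with HPPE against zinc and tin protoporphyrin, kept their direction and their call under all 23 alternatives. With the library axis as a covariate, the members called with HPPE numbered 5 higher and 1 lower against the control. They numbered 4 higher and 1 lower against zinc and 5 higher and 1 lower against tin protoporphyrin. Over all genes, that covariate gave 1002 higher and 804 lower against the control. It gave 356 and 289 against zinc and 682 and 648 against tin protoporphyrin. The main fit called 421 and 241, 1054 and 1024, and 122 and 116 genes in the same order. With HPPE replicates 2 and 3 summed, 3 members were higher against zinc and 1 against tin protoporphyrin. With only the compared groups fitted, 1 member was higher with HPPE against tin, and 0 were lower with tin against the control. With no filter beyond 1 count in total, 1 member (PRDX2) was lower with zinc than with tin protoporphyrin. Calls over all genes also changed with the setting, over the ranges given at the end of this section. The member counts in this section are therefore no result about the members alone. TXN, not called with HPPE against the control, was called under 5 alternatives: the library axis, compared groups only, no filter, and without zinc replicate 3 or tin replicate 1.

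Replicate numbers did not pair the libraries: deviations of the 18 same-numbered pairs correlated from -0.68 to 0.52, with 5 over 0.1, and 3 of 12 libraries correlated best with their own number. The replicate block left 1 member higher with HPPE against tin (TXNRD1) and 5 against zinc protoporphyrin, and put TXN2 with tin minus control at -0.0026.

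Leaving out each library in turn, members called lower numbered 0 to 1 with zinc and 0 to 1 with tin against the control and 0 to 3 with zinc against tin, and members called higher numbered 2 to 8 with HPPE against zinc and 1 to 3 against tin protoporphyrin. Over all genes tested, the same calls numbered 1 to 225, 9 to 237, 0 to 676, 100 to 1795 and 54 to 166, in that order. The HPPE minus control difference of the log2 ratio lay between 0.38 and 0.52 for TXN to TXN2 and between 0.31 and 0.52 for PRDX1 to PRDX3; the cause of the lost calls was not tested.

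The sign changed only for differences that were not called, and the cause was not tested. Under the library axis, TXNRD2 was -0.0034 for HPPE minus control, 0.14 for zinc minus control, -0.15 for HPPE minus zinc, -0.11 for HPPE minus tin and 0.036 for zinc minus tin. Under it PRDX1 was 0.042 for zinc minus control, -0.0023 for tin minus control and 0.045 for zinc minus tin, where TXNIP was 0.094, and tin minus control was -0.041 for TXN2, -0.018 for PRDX3 and -0.0047 for PRDX6. With the length and GC trend removed, TXNRD2 was 0.028 for zinc minus control, and tin minus control was -0.085 for TXN2, 0.0035 for TXNRD1, -0.030 for PRDX1, -0.046 for PRDX2 and -0.024 for PRDX6. TXN2, tin minus control, was -0.0056 with RLE size factors, -0.0016 with no filter, -0.016 with DESeq2 and -0.0080 with compared groups only. TXNRD2, HPPE minus tin, was -0.0058, -0.0035, -0.0083 and -0.0012 under the same settings, and -0.011 with unscaled libraries, where TXNRD1, tin minus control, was 0.00085 and TXNIP, HPPE minus zinc, 0.00077. PRDX1, tin minus control, was -0.019 with DESeq2.

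Without each library in turn, tin minus control ranged from -0.079 to 0.28 for TXN, -0.10 to 0.11 for TXN2, -0.072 to 0.021 for TXNRD1, -0.14 to 0.34 for TXNRD2, -0.13 to 0.21 for PRDX1, -0.11 to 0.19 for PRDX2, -0.12 to 0.16 for PRDX3 and -0.087 to 0.11 for PRDX6. TXNRD2 ranged from -0.13 to 0.34 for HPPE minus control, -0.35 to 0.12 for zinc minus control and -0.10 to 0.11 for HPPE minus tin. TXNIP ranged from -0.16 to 0.043 for HPPE minus zinc and -0.19 to 0.042 for zinc minus tin, and PRDX2 from -0.020 to 0.27 for HPPE minus tin. Calls over all genes ranged, across all alternatives, from 215 to 1002 higher and 66 to 804 lower with HPPE, 71 to 827 and 1 to 649 with zinc and 127 to 1246 and 4 to 1019 with tin against the control. They ranged from 100 to 2227 higher and 73 to 2040 lower with HPPE against zinc, 54 to 682 and 37 to 648 against tin, and 1 to 777 and 0 to 676 with zinc against tin protoporphyrin. No scaling moved the median of all genes by over 0.1 on the log2 scale. Depth limits SRXN1 most, where the low-depth libraries held 2 and 4 counts.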
